A study of Mus musculus with 8 samples.

Results

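Topoisomerases and the enzymes that clear their DNA lesions were examined as a set of 10 genes in the ileum of irinotecan-treated mice: Top1, Top1mt, Top2b, Top3a, Top3b, Tdp1, Tdp2, Topors, Parp1 and Xrcc1. The genes were taken by symbol from the deposited table, each matched 1 of its 55487 rows, and all 10 passed the filter of a mean of at least 10 normalized counts that left 16352 genes for testing. Bulk poly(A) RNA-seq gave 4 libraries from mice lacking gasdermin E (Gsdme-/-, called Gsdme_KO) and 4 from wild-type mice (Gsdme+/+, called WT), 1 library per mouse. Every mouse had received irinotecan, so the comparison is between genotypes under the drug and says nothing of the response to it. The sources used here name neither strain, age and sex nor the dose and the time after dosing. Values are normalized counts, that is, reads in a gene divided by 1 size factor per library, unless stated.

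Topoisomerases relieve the twisting and tangling of DNA by cutting it and holding the cut end on a tyrosine of the enzyme. Irinotecan is converted to SN-38, which traps topoisomerase I on the nick it has made, and collision of this complex with a replication fork or RNA polymerase leaves a break in cells such as those of the intestinal crypt. TDP1 and TDP2 are the phosphodiesterases that release a stuck topoisomerase from the DNA end, PARP1 senses the break, XRCC1 is the scaffold on which the strand is sealed, and TOPORS is a ubiquitin and SUMO ligase first known as a partner of topoisomerase I.

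No gene of the set was called between the genotypes (0 of 10 by limma at an adjusted p under 0.05, against 0.00612% of all tested genes). On the recovered reads, edgeR (0.00612% of all tested genes) and DESeq2 (0.0599% of the 15024 genes to which it gave an adjusted p) also called 0 of 10. At an unadjusted limma p under 0.05 the set held 1 gene, Topors, which was lower in Gsdme_KO, and the share of all tested genes at that level was 4.38%. Of the 10 genes, 6 had a positive and 4 a negative log2 fold change (Gsdme_KO minus WT), with a median of 0.01, against 50.6% positive and a median of 0.003 over all tested genes. All 10 lay within 0.31 of 0 on the log2 scale, and every 95% interval lay within a 2-fold change in either direction.

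The libraries held 15617407 to 23437343 reads in genes. Gsdme had 113 (KO4), 187 (KO5), 634 (KO7) and 464 (KO8) normalized counts in Gsdme_KO, and 2169 to 3376 in WT. The log2 difference was -3.32 (two-sided exact permutation p = 0.0286, the smallest that 70 assignments can give). In the fits across all genes it was called by DESeq2 (adjusted p = 2.12e-07) but not by limma (adjusted p = 0.786) or edgeR (adjusted p = 0.812). With all 8 libraries, the limma threshold on which the counts rest therefore missed even this loss. Without libraries KO4 and KO5, limma called Gsdme (adjusted p = 0.0275). The part of the gene that was deleted is not stated in the sources used here, so the remaining reads cannot be placed inside or outside it. Libraries KO4 and KO5, which had the lowest Gsdme values, also stood apart in their cell markers. The 10 B cell and follicle markers summed to 10996 in KO4 and 6254 in KO5, but to 346 in KO7 and 282 in KO8, against 248.5 to 367 in WT. The 10 mature enterocyte markers summed to 89328 in KO4 and 132329 in KO5, but to 427040 in KO7 and 322906 in KO8, against 216299 to 444881 in WT. The 10 general epithelial markers, such as Epcam and Vil1, summed to 318944 to 360503 in Gsdme_KO and 312744 to 376587 in WT. T cell markers summed to 1157 to 2950 in Gsdme_KO and 682 to 1213 in WT, macrophage and neutrophil markers to 4972 to 11734 in Gsdme_KO and 5482 to 7882 in WT, and smooth muscle and stromal markers to 61444 to 89722 in Gsdme_KO and 62819 to 86479 in WT. No marker of any of the 7 lists was at 0 in all libraries. In bulk tissue, fewer cells of a type and less RNA per cell cannot be told apart.

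**Figure D1:**
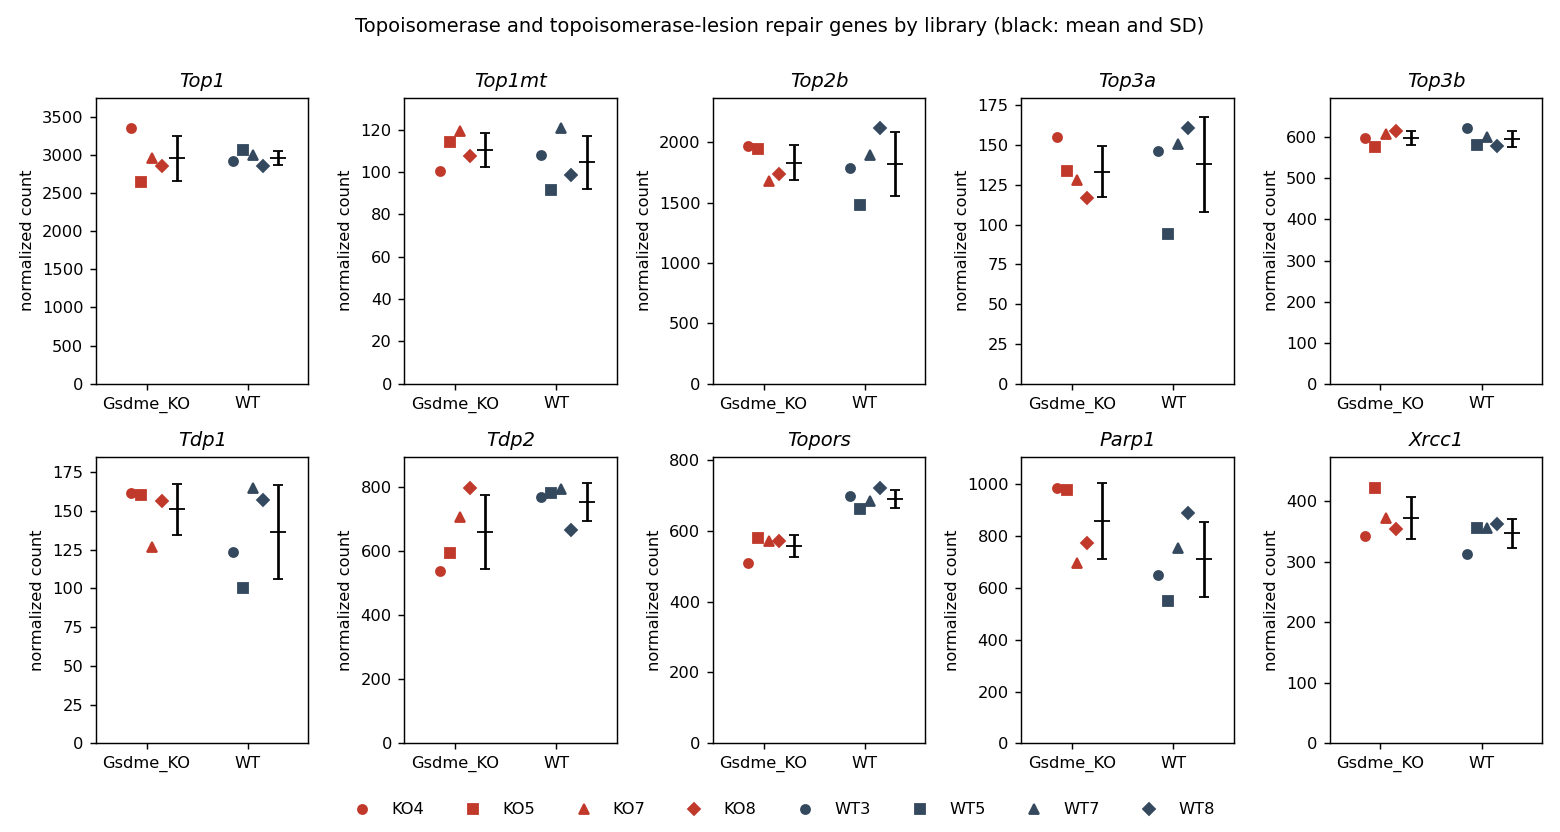
Normalized counts (y axis, linear, from 0) of the 10 genes in each library, with Gsdme_KO in red and WT in dark blue, and the mean and SD of each genotype in black (n = 4 each). Topors is the panel in which the 4 Gsdme_KO libraries, 510 to 579, lie below the 4 WT libraries, 661 to 721; in the other 9 panels the genotypes overlap.

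The mRNA of the direct target of the drug was measured at nearly the same level in both genotypes, and RNA-seq does not measure its protein. Top1 (ENSMUSG00000070544, chromosome 2, 160645888 to 160722764, plus strand, GRCm38), which encodes the nuclear enzyme that nicks a single strand, had 3349 (KO4), 2651 (KO5), 2964 (KO7) and 2859 (KO8) normalized counts in Gsdme_KO, against 2921 (WT3), 3069 (WT5), 2995 (WT7) and 2858 (WT8) in WT. The highest and the lowest library were both Gsdme_KO, KO4 and KO5, and the other 6 lay between 2858 and 3069. The log2 fold change was -0.01 (SE 0.0857, limma adjusted p = 0.99), and its 95% interval ran from 0.869-fold to 1.14-fold. The coefficient of variation was 9.9% in Gsdme_KO and 3.08% in WT (n = 4 each), where counting error alone would give 1.8% and 1.9%. The Gsdme_KO mean was 99.8% of the WT mean.

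Topors, the ligase gene, carried the smallest p of the set. It had 510 (KO4), 579 (KO5), 570 (KO7) and 570 (KO8) normalized counts in Gsdme_KO, against 697 (WT3), 661 (WT5), 683 (WT7) and 721 (WT8) in WT. All 4 Gsdme_KO libraries were below all 4 WT libraries, a pattern found in the lower direction in 1.19% of all tested genes. The mean was 557 ± 32 in Gsdme_KO and 690 ± 25.2 in WT (SD, n = 4 each), a ratio of 80.7%. The log2 fold change was -0.31 (SE 0.0775, 95% interval -0.48 to -0.13), with an unadjusted limma p of 0.00333, the gene ranking 15 of 16352, and an adjusted p of 0.849. It therefore did not pass the test. The adjusted p was 0.812 by edgeR and 0.134 by DESeq2, and it ran from 0.134 to 1 over all alternatives. The log2 fold change stayed between -0.33 and -0.27 when each library was left out in turn. Without KO4 and KO5 it was -0.27 (limma unadjusted p = 0.0176, adjusted p = 0.999), with KO7 and KO8 as the only Gsdme_KO libraries. The part of cell makeup in the Topors value was not tested. The gene (ENSMUSG00000036822, chromosome 4, 40259601 to 40269850, minus strand, GRCm38) shares 113 exonic bases, 2.93% of its own, with Smim27 on the opposite strand, which averaged 19.5 normalized counts. No source used here states whether counting used the strand, so reads in that stretch cannot be assigned.

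The promoters of these 2 genes are shown because one encodes the target of the drug and the other is the gene of the set whose libraries did not overlap. Each covers 250 bases before and 50 after the RefSeq start of the gene, on the gene's own strand (GRCm38.p6): Top1 at chr2:160645647-160645946 on the plus strand and Topors at chr4:40269792-40270091 on the minus strand. The RefSeq starts differ by a few bases from those in the gene coordinates given above, which are from GENCODE M21. Capitals mark matches, on either strand, to 5 motifs that were searched: GGGCGG (GC box), CCAAT, TGACGTCA (cAMP response element), CACGTG (E-box) and TATAAA.
Top1: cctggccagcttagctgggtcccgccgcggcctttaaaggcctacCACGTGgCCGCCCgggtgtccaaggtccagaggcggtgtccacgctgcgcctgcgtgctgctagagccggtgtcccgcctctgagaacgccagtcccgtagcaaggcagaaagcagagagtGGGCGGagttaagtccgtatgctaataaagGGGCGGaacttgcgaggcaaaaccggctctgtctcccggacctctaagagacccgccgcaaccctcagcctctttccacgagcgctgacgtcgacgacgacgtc
Topors: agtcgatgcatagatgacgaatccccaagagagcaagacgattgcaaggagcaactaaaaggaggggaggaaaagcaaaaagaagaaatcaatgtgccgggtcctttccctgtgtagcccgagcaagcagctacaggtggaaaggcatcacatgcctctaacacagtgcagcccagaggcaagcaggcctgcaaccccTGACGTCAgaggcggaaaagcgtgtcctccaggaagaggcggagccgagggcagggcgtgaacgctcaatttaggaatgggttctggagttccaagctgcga
The Top1 window held 3 GGGCGG matches and 1 CACGTG match, and the Topors window held 1 TGACGTCA match, whose first base is 52 bases before the RefSeq start. None of the marked matches overlapped another. Among 32851 promoter windows of the same length, 35.7% held GGGCGG, 7.15% CACGTG, 1.79% TGACGTCA, 37.4% CCAAT and 13.6% TATAAA. These matches describe the letters only, and the libraries carry no measurement of binding. Of the 10 genes, 7 had a promoter in the table.

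The other topoisomerases overlapped between the genotypes in every case. Top2b encodes topoisomerase II beta, the enzyme that passes a duplex through a cut duplex in cycling and resting cells alike. It had 1968 (KO4), 1945 (KO5), 1683 (KO7) and 1735 (KO8) normalized counts in Gsdme_KO, against 1789 (WT3), 1484 (WT5), 1893 (WT7) and 2116 (WT8) in WT. Its log2 fold change was 0.02 (SE 0.117, limma adjusted p = 0.98). The 4 Gsdme_KO libraries lay inside the WT range. Of the exonic bases of Top2b, 12.3% are shared with Rarb on the opposite strand, which averaged 44.9 normalized counts.

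Top3b, which encodes a topoisomerase that acts on RNA as well as DNA together with TDRD3, was the most even gene of the set. It had 598 (KO4), 576 (KO5), 608 (KO7) and 615 (KO8) normalized counts in Gsdme_KO, against 622 (WT3), 582 (WT5), 600 (WT7) and 578 (WT8) in WT. Its coefficient of variation was 2.84% in Gsdme_KO and 3.36% in WT (n = 4 each), less than the 3.99% and 4.23% that counting error alone would give, and 0.318% of tested genes had a smaller SD within genotypes on the log2 scale. The log2 fold change was 0.01 (limma adjusted p = 0.983), and the 95% interval ran from 0.9-fold to 1.13-fold, the narrowest of the set on the log2 scale.

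Top3a encodes the enzyme that, with BLM and RMI1, undoes linked recombination intermediates. It had 155 (KO4), 134 (KO5), 128 (KO7) and 117 (KO8) normalized counts in Gsdme_KO, against 146 (WT3), 94.1 (WT5), 150.5 (WT7) and 161 (WT8) in WT, so that WT5 was the lowest and WT8 the highest of the 8 libraries. Top1mt, the mitochondrial enzyme, had the lowest mean of the set, from 77 to 152 reads per library. It had 100.5 (KO4), 114 (KO5), 119 (KO7) and 108 (KO8) in Gsdme_KO, against 108 (WT3), 91.7 (WT5), 121 (WT7) and 98.5 (WT8) in WT. The log2 fold changes were -0.03 (SE 0.191) for Top3a and 0.08 (SE 0.138) for Top1mt, with limma adjusted p of 0.982 and 0.92. The 95% interval spanned 0.727-fold to 1.33-fold for Top3a and 0.851-fold to 1.32-fold for Top1mt. Counting error alone would give a coefficient of variation of 8.71% for Top3a and 10.1% for Top1mt in WT, where 21.6% and 12% were measured (n = 4).

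Levels were set against each other per kilobase of the principal annotated transcript (GENCODE M21). On that scale Top1 was the most abundant gene of the set, at 767 ± 75.9 in Gsdme_KO and 768 ± 23.7 in WT (normalized counts per kilobase, SD, n = 4 each). Tdp2 followed at 337 ± 59.0 and 384 ± 30.0. Parp1, Top3b, Top2b, Topors and Xrcc1 had means between 137 and 222 in the 2 genotypes, and their order depends on the length used. Tdp1 had 74.2 in Gsdme_KO and 67.0 in WT, Top1mt 58.0 and 55.0, and Top3a was lowest at 35.6 and 36.9. With the union of all annotated exons as the length, Top1 (283 and 284) and Tdp2 (201 and 229) remained the highest, but Tdp1, at 18.9 and 17.1, became the lowest.

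Together with Top2a, the isoform of cycling cells, which is not in the set and had 1920 ± 198 normalized counts in Gsdme_KO and 1968 ± 604 in WT (SD, n = 4 each), the topoisomerase genes gave a makeup in which, for each gene, the genotype means differed by less than the SD within either genotype. Top1 made up 47.8% ± 2.29 of topoisomerase mRNA per kilobase in Gsdme_KO and 48.1% ± 5.36 in WT, and Top2a 23.0% ± 1.78 and 23.1% ± 5.46. Top3b and Top2b gave 12.2% and 11.1% in Gsdme_KO, against 12.1% and 10.9% in WT, while Top1mt and Top3a gave 3.65% and 2.22% against 3.42% and 2.28%. The widest spread was in WT, where Top1 took 55.5% in WT5 and 43.2% in WT8, and Top2a 16.1% and 28.4%. With the exon union as length, the Top1 share was 36.5% in Gsdme_KO and 36.9% in WT. On that scale Top2b (16.2% and 16.0%) exceeded Top3b (9.21% and 9.19%), and Top1mt rose to 7.0% and 6.6%. The makeup therefore depends on the length used.

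**Figure D2:**
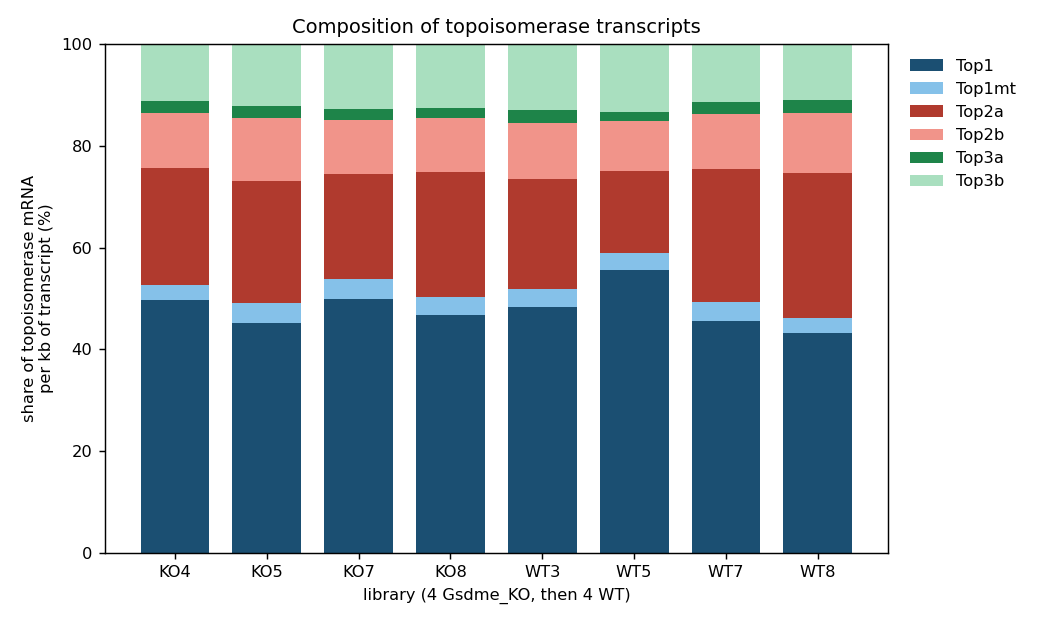
Share of each of 6 topoisomerase genes in their summed mRNA per kilobase of principal transcript (y axis, percent), 1 bar per library, Gsdme_KO left and WT right. Top1 takes 45.2% to 49.8% in Gsdme_KO and 43.2% to 55.5% in WT, and the shares of Top1 and Top2a vary most among the WT libraries.

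Neither phosphodiesterase gene passed the test. Tdp2, whose enzyme removes topoisomerase II from the 5′ end of a break, had 538 (KO4), 594 (KO5), 707 (KO7) and 797 (KO8) normalized counts in Gsdme_KO, against 768 (WT3), 782 (WT5), 793 (WT7) and 665 (WT8) in WT. KO4 and KO5 were below all WT libraries and KO8 was above them. The log2 fold change was -0.20 (SE 0.132, 95% interval -0.50 to 0.10, limma adjusted p = 0.849), and without KO4 and KO5 it was 0.00 (limma adjusted p = 1). KO4 and KO5 also stood apart in summed B cell, T cell, macrophage and neutrophil, and mature enterocyte markers. The part of these cell types in the Tdp2 value was not tested.

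Tdp1, whose enzyme removes topoisomerase I from the 3′ end, is the nearer to the lesion that irinotecan makes. It had 161 (KO4), 160 (KO5), 127 (KO7) and 156 (KO8) normalized counts in Gsdme_KO, against 124 (WT3), 100.03 (WT5), 165 (WT7) and 157 (WT8) in WT. The Gsdme_KO libraries lay inside the WT range, and the log2 fold change was 0.17 with an SE of 0.183 (limma adjusted p = 0.875). Without WT5 it was 0.03, and without KO4 and KO5 it was 0.07. Per kilobase, the ratio of Tdp1 to Top1 was 0.0975 ± 0.0145 in Gsdme_KO and 0.0876 ± 0.0206 in WT, and that of Tdp2 to Top2b was 1.93 ± 0.471 and 2.23 ± 0.46 (SD, n = 4 each), given as a description.

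Among the break-sensing genes, Parp1 had the highest log2 fold change of the set, again without a call. Parp1, whose product marks nicks with poly(ADP-ribose), had 986 (KO4), 980 (KO5), 696 (KO7) and 775 (KO8) normalized counts in Gsdme_KO, against 649 (WT3), 550 (WT5), 752 (WT7) and 890 (WT8) in WT. KO4 and KO5 were above all WT libraries, whereas KO7 and KO8 lay inside the WT range. The log2 fold change was 0.28 (SE 0.173, 95% interval -0.11 to 0.67, limma adjusted p = 0.849), and 0.07 without KO4 and KO5 (limma adjusted p = 0.999). The 2 libraries with the most Parp1 reads per size factor, KO4 and KO5, had the highest summed B cell markers, 10996 and 6254. The same 2 libraries had the highest T cell sums (2950 and 1832) and macrophage and neutrophil sums (11734 and 8721). Their mature enterocyte sums (89328 and 132329) were the lowest. The part of these cell types in the Parp1 value was not tested. Xrcc1 had 343 (KO4), 422 (KO5), 372 (KO7) and 354 (KO8) in Gsdme_KO, against 312 (WT3), 356 (WT5), 356 (WT7) and 363 (WT8) in WT, with KO5 highest and WT3 lowest of the 8. Its log2 fold change was 0.10 (SE 0.101, limma adjusted p = 0.859), and 0.04 without KO5 or 0.05 without WT3.

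**Figure D3:**
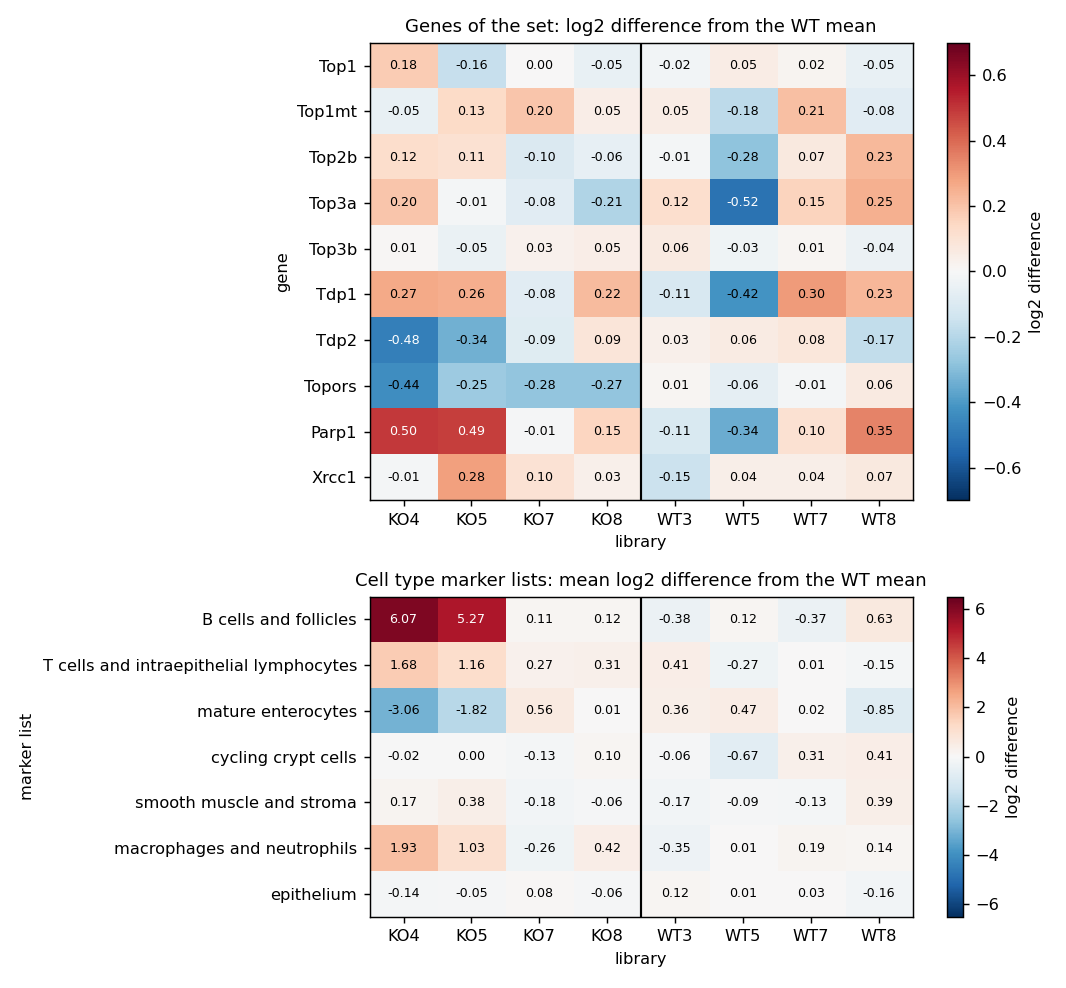
Log2 difference of each library from the WT mean for the 10 genes (upper panel) and, as a mean over 10 markers each, for 7 cell type lists (lower panel, wider colour scale), with Gsdme_KO left of the line and WT right. Tdp2 is at -0.48 and -0.34 and Parp1 at 0.50 and 0.49 in KO4 and KO5, the libraries with B cell scores of 6.07 and 5.27, whereas Topors is between -0.44 and -0.25 in all 4 Gsdme_KO libraries.

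Several genes of the set shared their lowest library. WT5 was the lowest of the 8 libraries for 5 of the 10 genes, Top1mt, Top2b, Top3a, Tdp1 and Parp1, and the highest for 0. The share of all tested genes with WT5 lowest was not counted, so this may not be particular to the set. The 10 markers of cycling crypt cells, which include Top2a and Mki67, summed to 5184 in WT5, against 7638 to 10764 in the other 3 WT libraries and 7210 to 8448 in Gsdme_KO. WT8, with the highest cycling sum, was the highest library for Top2b, Top3a and Topors. Other genes lowest in WT5 were highest elsewhere, Top1mt and Tdp1 in WT7 and Parp1 in KO4. Top1mt was at 98.5 in WT8, against 91.7 in WT5. The part of cycling cells in these values was not tested.

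**Figure D4:**
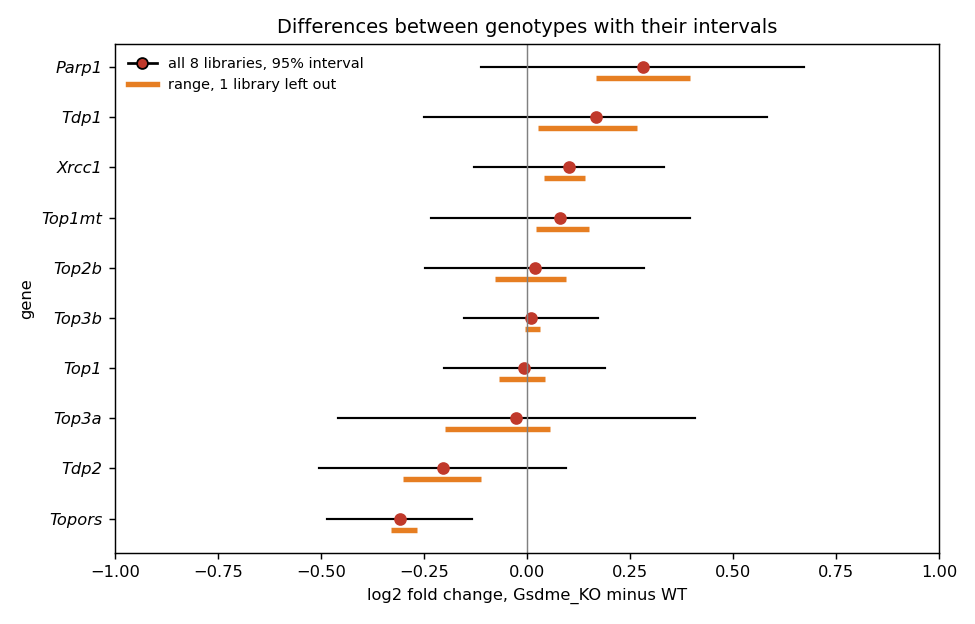
Log2 fold change of each gene (x axis, Gsdme_KO minus WT) with its 95% interval from limma (black) and the range when each library was left out in turn (orange). Topors has an unadjusted interval, -0.48 to -0.13, that does not include 0, and the 9 others include it.

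The genes that work beside the set were read from 5 lists, none of which held a called gene. Single-strand break repair and PARP partners had 5 positive and 8 negative log2 fold changes among 13 genes (median -0.02). The nuclease list, which holds nucleases that can cut out a stuck topoisomerase and also partner and other repair proteins, had 6 and 6 among 12 (median -0.02). Pcna, the replication clamp, had 1885 ± 48.7 normalized counts in Gsdme_KO and 2016 ± 248 in WT, and Rad50, of the MRE11 nuclease complex, had 366 ± 26.6 and 390 ± 57.2 (SD, n = 4 each). Parp3, a relative of Parp1, had 771 ± 288 and 552 ± 107 (limma adjusted p = 0.849). Its Gsdme_KO values were 1190 (KO4), 718 (KO5), 548 (KO7) and 626 (KO8). The Parp3 log2 fold change was 0.43, but 0.20 without KO4 and 0.11 without KO4 and KO5. Lig1, a DNA ligase, had 727 ± 92.3 in Gsdme_KO and 729.9 ± 127 in WT. The genes of highest mean in the nuclease list were Ercc5, of nucleotide excision repair, at 426 ± 12.2 in Gsdme_KO and 439.5 ± 24.8 in WT, and Rbbp8, a partner of the MRE11 complex, at 374 ± 27.0 in Gsdme_KO and 386 ± 40.6 in WT.

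Genes for proteolysis and SUMO or ubiquitin handling of topoisomerase adducts had 8 positive and 10 negative log2 fold changes among 18 genes (median 0.00). Vcp, the segregase that extracts proteins from chromatin, had 8493 ± 530 normalized counts in Gsdme_KO and 7942 ± 428 in WT (SD, n = 4 each; limma adjusted p = 0.849). Ddb1, an adaptor of cullin ligases, had 4690 ± 189 in Gsdme_KO and 4706 ± 285 in WT, and Usp7, a deubiquitinase, had 2371 ± 47.4 in Gsdme_KO and 2407 ± 127 in WT. Ddi2, a ubiquitin-directed protease gene named after its values were seen, was the 1 gene of the list whose libraries did not overlap, against 2.5% of all tested genes in either direction. It had 1507 ± 67.7 in Gsdme_KO and 1788 ± 95.6 in WT, at a log2 fold change of -0.25 (unadjusted p = 0.0083, limma adjusted p = 0.849).

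Topoisomerase partners had 7 positive and 3 negative log2 fold changes among 10 genes (median 0.04), led in level by Ncl, the nucleolar protein nucleolin, at 7685 ± 1220 normalized counts in Gsdme_KO and 7233 ± 1470 in WT (SD, n = 4 each). Smarca4, a chromatin remodeller, had 2220 ± 89.6 in Gsdme_KO and 2144 ± 112 in WT. RNase H2 and R-loop enzymes, which clear RNA joined to or paired with DNA, had 2 and 3 among 5 (median -0.02). Aqr, an RNA helicase of the spliceosome, had 678 ± 37.6 in Gsdme_KO and 691 ± 72.2 in WT (limma adjusted p = 0.966). The RNase H2 subunit genes Rnaseh2c and Rnaseh2a had 415 ± 65 and 346 ± 23.2 in Gsdme_KO, against 401 ± 39.2 and 325.5 ± 28.3 in WT.

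**Figure D5:**
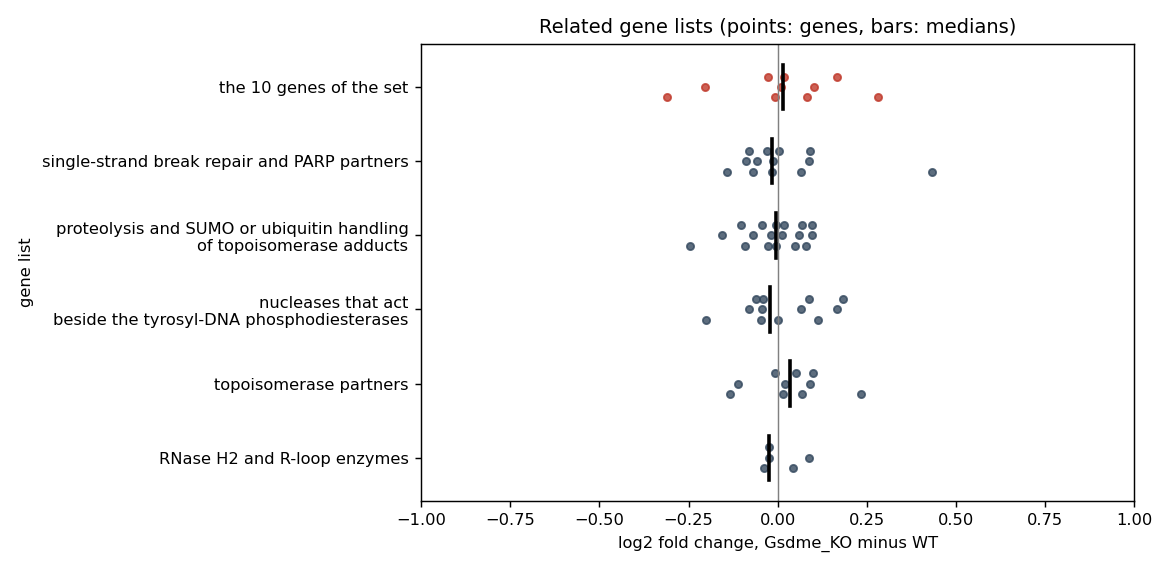
Log2 fold change (x axis, Gsdme_KO minus WT) of each gene in the set of 10 (red) and in the 5 related lists (dark blue), with the median of each list as a black bar. Medians lie between -0.02 and 0.04, and no gene shown passed the test.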

How the data were processed

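The build GRCm38 and the tools DESeq2, featureCounts, HISAT2, SAMtools and Subread are listed in the submitters' processing notes; no source used here states versions, annotation release or strand setting. The table deposited by the authors holds normalized signal: reads per gene were divided by 1 size factor per library. All values (100%) were whole multiples of 1 step per library within 0.01 reads, so whole reads were recovered. Columns are numbered differently from the labels and were assigned to a genotype only. Every pair of libraries differed beyond sampling noise (lowest chi-square per degree of freedom 11.5). 

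Tests used limma-trend (limma 3.58.1, R 4.3.3) on log2(normalized count + 1), which understates changes of low genes, for genes with a mean of at least 10, with Benjamini-Hochberg adjustment over all 16352. Fold changes and their intervals are on that scale. Alternatives were edgeR 4.0.16 and DESeq2 1.42.0 on recovered reads, other pseudocounts, filters, scalings and weights, and left-out libraries. The scripts were tested on simulated data. Counting error covers reads only. Lengths and coordinates are from GENCODE M21 (GRCm38); table IDs found there numbered 55141.

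The genes and lists were chosen with earlier results of these data known. Named list genes are the 3 of highest mean per list and any called gene, with exceptions stated. Of 129 list entries, 128 matched; 1 further list gene is not reported here.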

Additional observations from a re-analysis of the deposited data

Results flagged for a closer look

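In 3 of the 52 groups of 4 libraries examined, 1 library stood far from the other 3 of its genotype by Dixon's criterion, and chance flags about 1 group in 20. Topors was at 509.7 normalized counts in KO4, against 570 to 579 in the other 3 Gsdme_KO libraries. Tdp1 was at 126.7 in KO7, against 156 to 161 in the others. Xrcc1 was at 312.0 in WT3, against 356 to 363 in the other 3 WT libraries.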

How the results depend on the processing

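None of the 10 genes of the set was called under any setting run, and the log2 fold changes of Topors, Tdp1, Tdp2, Parp1 and Xrcc1 kept their sign in all 19 alternatives, although that of Tdp2 was 0.00 without KO4 and KO5. Leaving out 1 library moved some of these by over 1.5 times: Tdp1 ran from 0.027 (without WT5) to 0.266 (without WT7), Xrcc1 from 0.041 (without KO5) to 0.14, with 0.052 without WT3, Parp1 from 0.166 (without WT5) to 0.396 and Tdp2 from -0.301 to -0.113 (without KO4), while Topors ran from -0.33 to -0.267. Those of the other 5 are near 0 and changed sign: Top1 was 0.003 by edgeR and 0.038 with quantile normalization, Top1mt -0.023 with quantile normalization, and Top2b -0.036 with array weights and -0.08 without KO4 and KO5. With 1 library left out, Top1 ran from -0.069 to 0.044, Top2b from -0.077 to 0.094, Top3a from -0.199 to 0.056 and Top3b from -0.005 to 0.031. Among other named genes, Ddb1 was 0.002 with TMM, 0.001 by edgeR and 0.036 with quantile normalization, Lig1 -0.005 by DESeq2 and -0.013 with array weights, Usp7 0.019 with quantile normalization, and Top2a -0.035 by DESeq2, -0.03 by edgeR and -0.046 without KO4 and KO5. Rnaseh2c was -0.059 with array weights, and without KO4 and KO5 Rnaseh2c was -0.136 and Ncl -0.024. With 1 library left out, Aqr ran from -0.075 to 0.043, Ddb1 ran from -0.033 to 0.026, Lig1 ran from -0.13 to 0.095, Ncl ran from -0.031 to 0.194, Rad50 ran from -0.166 to 0.001, Rbbp8 ran from -0.089 to 0.016, Top2a ran from -0.2 to 0.159, Rnaseh2c ran from -0.042 to 0.134 and Usp7 ran from -0.055 to 0.007. The cause was not tested.

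Across the 16352 genes, 1 gene was called higher and 0 lower by limma, against 8 and 1 by DESeq2, 0 to 1 higher and 0 lower with 1 library left out, and 0 and 1 without KO4 and KO5. Gsdme stayed at -3.71 to -2.88 with 1 library left out, and was -2.37 without KO4 and KO5, where the exact p of 0.0667 is the smallest that 15 assignments allow. Without KO4 and KO5, Gsdme was the 1 gene called lower by limma (adjusted p = 0.0275). With 1 library left out, its limma adjusted p was 0.192 to 0.997. No paired analysis was possible because the labels tie no replicate number to a litter, batch or day across genotypes, and the columns do not carry those numbers. Top1mt, Top3a and Tdp1 had the fewest reads, 77 to 213 per library, and the largest counting error.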
